A study of Rattus norvegicus with 97 samples.

Results

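Potassium channels set the resting potential of a neuron, repolarise it after an action potential and decide how readily it fires again. Voltage-gated channels (Kv) open on depolarisation, inward rectifiers (Kir) hold the resting potential and carry the response to many G protein-coupled receptors, and 2-pore-domain channels (K2P) pass the background leak. Calcium-activated channels and their Slo relatives couple the potassium current to intracellular calcium or sodium. In the striatum, inward rectifiers and A-type Kv channels keep medium spiny neurons silent at rest, whereas channels of the Kv3 family support the fast firing of interneurons and of pallidal projection neurons.

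The genes described here are all those whose only symbol in the array annotation starts with Kcn, each read from its brightest probe set by mean over all arrays. There were 75 such genes among the 14217 genes with 1 symbol. They occupied 126 of the 31042 tested probe sets, and 31 genes were covered by more than 1. By symbol, 31 genes coded for pore-forming or silent Kv subunits, 11 for Kv auxiliary subunits, 15 for Kir channels, 11 for K2P channels and 7 for calcium-activated and Slo channels or their beta subunits.

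RNA from the nucleus accumbens shell, the ventral and medial part of the striatum, was hybridised to 97 Affymetrix rat arrays, 1 per animal. The rats belonged to 5 pairs of lines selected over generations for a high or a low intake of alcohol. The preferring lines were P (10 animals), HAD1 (10), HAD2 (10), AA (10) and sP (9), and their non-preferring counterparts were NP (10), LAD1 (9), LAD2 (10), ANA (10) and sNP (9). The labels used here give no sex, age or drinking history, so a line difference is one between breeding populations, with nothing said of treatment. Each pair is 1 preferring line against 1 non-preferring line, and differences that arose in a line by drift cannot be told apart from those that arose by selection.

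Array medians lay between 7.82 and 8.02 on the log2 scale. The Gapdh 3' minus 5' signal, a measure of RNA integrity and labelling, averaged from 0.09 in ANA and AA to 4.89 in LAD1, so levels are not compared between pairs. Within pairs its mean differed by at most 0.19 (exact permutation tests, two-sided, adjusted p from 0.445 to 0.914 over 10 tests). For 8 arrays (P 9, NP 9, HAD1 28, LAD1 37, AA 19, ANA 20, sP 4 and sNP 4) the genes with the clearest line difference in the other animals did not follow the label. On a score of those genes with 1 at the preferring and 0 at the non-preferring line, the arrays labelled HAD1 28 (0.0049) and LAD1 37 (0.99), AA 19 (-0.039) and ANA 20 (0.93), and NP 9 (1.05) lay at the level of the opposite line of their pair. The arrays labelled P 9 (0.46), sP 4 (0.40) and sNP 4 (0.48) lay between the lines. Whether labels were exchanged was not tested, and arrays at the level of the opposite line draw the printed difference of their pair towards 0. These arrays were kept, and changes without them in the calls of Kcn genes and partners are given. Markers of medium spiny neurons, the principal cells of the shell, were bright in every line, with list means from 9.57 to 13.15.

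The probe sets of the Kcn genes covered almost the whole range of the array, with mean signals from 4.47 (Kcnj1) to 12.97 (Kcnab1). Of the 75, 22 lay in the brightest 25% of all probe sets and 20 in the dimmest 25%. Brightness depends on the probes as well as on the RNA, so it shows where the array has signal and does not rank genes by abundance. Among pore-forming Kv genes the 4 brightest probe sets were those of Kcnq5, an M-current subunit (12.34), Kcnd2, an A-type channel of dendrites (12.21), Kcna2, a low-threshold channel of axons (11.70), and Kcna4, a fast-inactivating Kv1 channel (11.42). Among Kv auxiliary genes they were Kcnab1 (12.97) and Kcnab2 (10.96), beta subunits of Kv1 channels, and Kcnip2 (11.99) and Kcnip4 (11.35), calcium-binding partners of A-type channels. For Kir channels they were Kcnj11, the pore of ATP-sensitive channels (9.56), and the strong rectifiers Kcnj14 (9.40) and Kcnj4 (9.36), with Kcnj16, a subunit found mainly in glia and epithelia (8.93). No Kir gene had its probe set in the brightest 25%. For K2P channels they were the mechanosensitive Kcnk2 (11.78), Kcnk1 (8.05), Kcnk13 (7.69) and the acid-sensitive Kcnk3 (7.03). For calcium-activated and Slo channels they were Kcnma1, the BK channel (11.39), Kcnt1, a sodium-activated channel (10.58), Kcnmb4, the neuronal BK beta subunit (10.15), and Kcnn3, an SK channel (7.58).

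Animals of the same line differed most for Kcns3, a silent subunit that modifies Kv2 channels (pooled SD within lines 1.2 log2), Kcnj6, the GIRK2 subunit of G protein-gated channels (0.97), and Kcnj16 (0.92). The median SD within lines was 0.23 for the 75 genes and 0.17 for all probe sets.

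**Figure D1:**
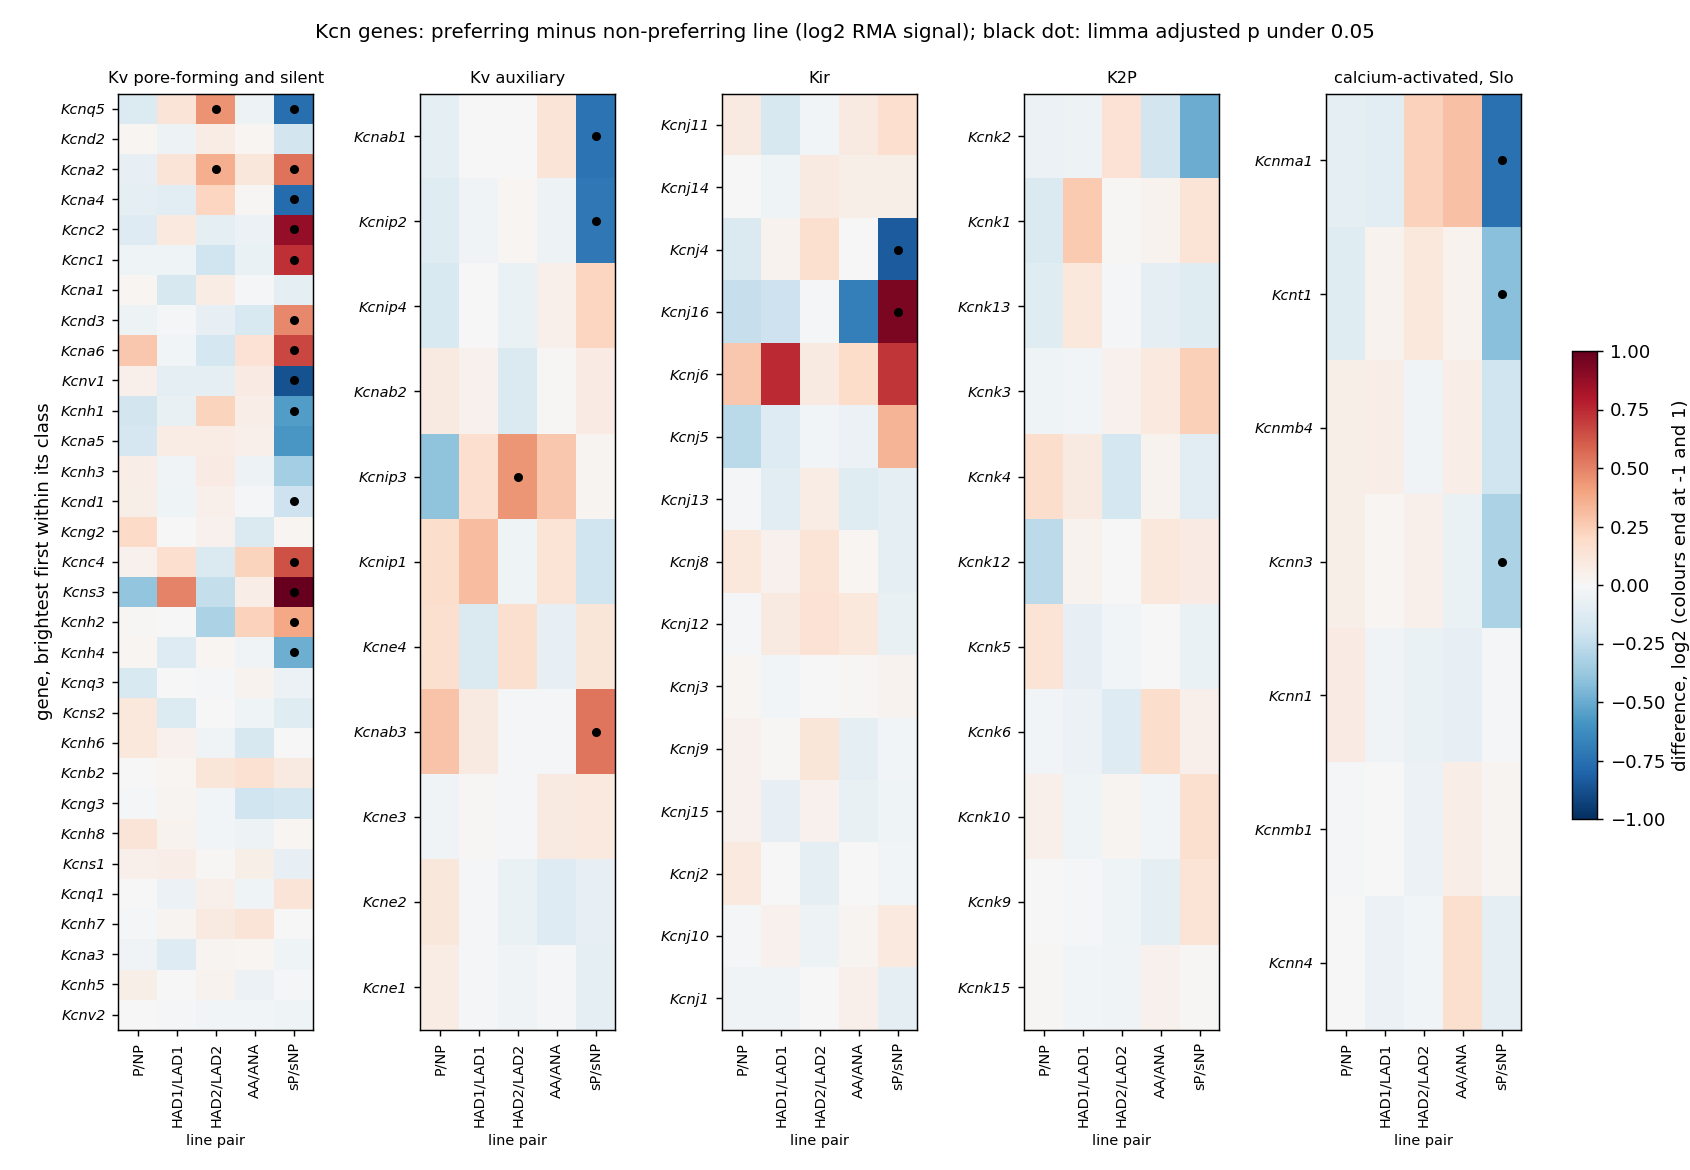
Difference between the preferring and the non-preferring line of each pair (columns, log2 RMA signal, red for higher in the preferring line) for the 75 Kcn genes (rows, brightest first) in 5 classes, with a dot where limma's adjusted p was under 0.05. There are 22 dots in the sP/sNP column, 3 in HAD2/LAD2 and none in the other columns, and no dot in the K2P panel.

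In HAD2 rats, 3 Kcn genes of the neuronal Kv system were higher than in LAD2 rats: Kcnip3, Kcnq5 and Kcna2. Their signals were up to 1.36-fold those of LAD2 rats. They were 3 of 75 genes (4%), beside 4.6% of all probe sets called in this pair (limma, adjusted p under 0.05), so the number of calls was close to the background. No Kcn gene was called lower, and no Kir, K2P or calcium-activated gene was called.

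Kcnip3 codes for KChIP3, also known as calsenilin and DREAM, a calcium-binding protein that assembles with A-type Kv channels and can also repress transcription. Its signal was 10.81 at the lowest, 10.96 at the median and 11.29 at the highest in HAD2 rats, against 10.27, 10.53 and 10.84 in LAD2 rats. All 10 HAD2 animals lay above the LAD2 median, and the lines overlapped only where the highest LAD2 animal passed the lowest HAD2 animal. The difference was 0.44 ± 0.068 (SE; limma adjusted p = 0.000189). The second, dimmer probe set of Kcnip3 differed by 0.06 ± 0.058 (adjusted p = 0.746).

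Kcnq5 codes for a subunit of the slow, non-inactivating M-current that muscarinic receptors close. It had a lowest signal of 12.40, a median of 12.50 and a highest of 12.80 in HAD2 rats, against 11.63, 12.21 and 12.39 in LAD2 rats. Every HAD2 animal therefore lay above every LAD2 animal, by a narrow margin at the edge. Of all probe sets, 0.918% had lines that did not overlap in this pair, and Kcnq5 was the only one of the 75 genes. The difference was 0.45 ± 0.093 (limma adjusted p = 0.00418). Its other 2 probe sets, both far dimmer, differed by -0.01 and 0.05 and were not called.

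Kcna2 codes for a Kv1 channel of axons and terminals. Its signal was 11.38, 11.82 and 12.02 (lowest, median and highest) in HAD2 rats, against 11.09, 11.44 and 11.64 in LAD2 rats. The lines overlapped, and 9 of 10 HAD2 animals lay above the LAD2 median. The difference was 0.36 ± 0.083 (limma adjusted p = 0.00952), while the second probe set, with a mean signal of 5.92, differed by -0.07 (adjusted p = 0.721). All 3 genes stayed called when each of the 20 animals was left out in turn, with adjusted p up to 0.021. With all 10 lines in 1 limma fit only Kcnip3 stayed called (adjusted p = 0.00357), while Kcnq5 (adjusted p = 0.3) and Kcna2 (adjusted p = 0.155) did not.

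Oligodendrocyte markers were lower in HAD2 than in LAD2 rats for 9 of 9 genes (5 called), and 3 of 8 mural and meningeal markers were called higher. Of the endothelial markers 4 of 8 were called (3 lower, 1 higher), and of the microglial markers 3 of 10 (2 lower and P2ry12 higher by 0.69). Of 7 interneuron markers only Slc5a7 was called (-0.36), and the median difference of the list was 0.01. Of 6 cortical markers only Rorb was called (0.94), with a median difference of 0.05. No marker of medium spiny neurons (0 of 15), of the ventral pallidum, septum and basal forebrain (0 of 8) or of astrocytes (0 of 9) was called. The oligodendrocyte list averaged from 11.1 to 11.5 over HAD2 animals and from 11.3 to 12.1 over LAD2 animals. The part of these cells in the 3 Kcn differences was not tested.

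The next genes of HAD2/LAD2 in order of p did not pass: Kcnh2, an ERG channel, at -0.32 ± 0.109 (limma adjusted p = 0.121), and Kcne4, a small auxiliary subunit, at 0.16 ± 0.066 (adjusted p = 0.214). One probe set of Kcnc2, a Kv3 channel of fast-firing neurons, was called higher (0.31, adjusted p = 0.0275), but its mean signal was only 6.43 and the brightest of the 6 differed by -0.10 (adjusted p = 0.946). Of the 17 measured partners of potassium channels without a Kcn symbol, 1 was called: Abcc9, the SUR2 subunit of ATP-sensitive channels, was higher in HAD2 rats (9.15 against 8.55 in LAD2 rats; 0.60 ± 0.05, adjusted p = 2.05e-08). The pore genes that assemble with SUR proteins, Kcnj8 (0.14, adjusted p = 0.587) and Kcnj11 (-0.03, adjusted p = 0.956), were not called.

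The 250 bases before the annotated starts of these 3 genes are printed because they were the Kcn genes called in HAD2/LAD2. Their number was close to the background (4%, beside 4.6% of all probe sets), and shared regulation was not tested. The sequences are those of the RefSeq rat reference, build GRCr8, and not of these lines. They run 5′ to 3′ on the gene's own strand: Kcnip3 at chr3:135195411-135195660 (minus strand), Kcnq5 at chr9:31891282-31891531 (minus) and Kcna2 at chr2:197393280-197393529 (plus). Capitals mark a GC box or a CCAAT box on either strand.
Kcnip3: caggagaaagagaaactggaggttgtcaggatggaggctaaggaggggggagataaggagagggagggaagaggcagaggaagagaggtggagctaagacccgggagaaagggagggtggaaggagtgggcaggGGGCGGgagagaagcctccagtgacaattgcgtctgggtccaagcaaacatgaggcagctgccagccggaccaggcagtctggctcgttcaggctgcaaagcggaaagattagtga
Kcnq5: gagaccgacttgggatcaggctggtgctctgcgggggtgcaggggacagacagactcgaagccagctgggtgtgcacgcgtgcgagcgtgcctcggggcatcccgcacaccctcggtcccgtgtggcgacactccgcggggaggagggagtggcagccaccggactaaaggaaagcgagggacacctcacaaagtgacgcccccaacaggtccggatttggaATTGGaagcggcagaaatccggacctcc
Kcna2: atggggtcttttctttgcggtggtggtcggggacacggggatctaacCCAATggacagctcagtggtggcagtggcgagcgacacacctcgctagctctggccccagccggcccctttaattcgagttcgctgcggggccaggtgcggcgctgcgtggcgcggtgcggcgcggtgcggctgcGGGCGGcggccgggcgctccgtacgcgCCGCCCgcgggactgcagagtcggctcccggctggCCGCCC

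Both strands were searched for the GC box (GGGCGG), for the CCAAT box as spelled in its name, for the cyclic AMP response element (TGACGTCA) and for the TATA box (TATAAA). The Kcnip3 window held 1 GC box, that of Kcna2 held 3 GC boxes and 1 CCAAT box, and that of Kcnq5 held 1 CCAAT box on the opposite strand. None held the cyclic AMP response element or the TATA box, so no motif of the 4 was in all 3 windows. A GC box was in 55.8% of the 52 Kcn promoters that RefSeq's table holds and in 30.5% of all 33469 promoters. The CCAAT box was in 23.1% of the Kcn promoters and in 34% of all, and the TATA box in 3.85% of the Kcn promoters and in 12.9% of all. The Kcn shares count 1 promoter per gene, and the others count every full-length promoter of RefSeq's table, so the units differ. These matches describe letters only.

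**Figure D2:**
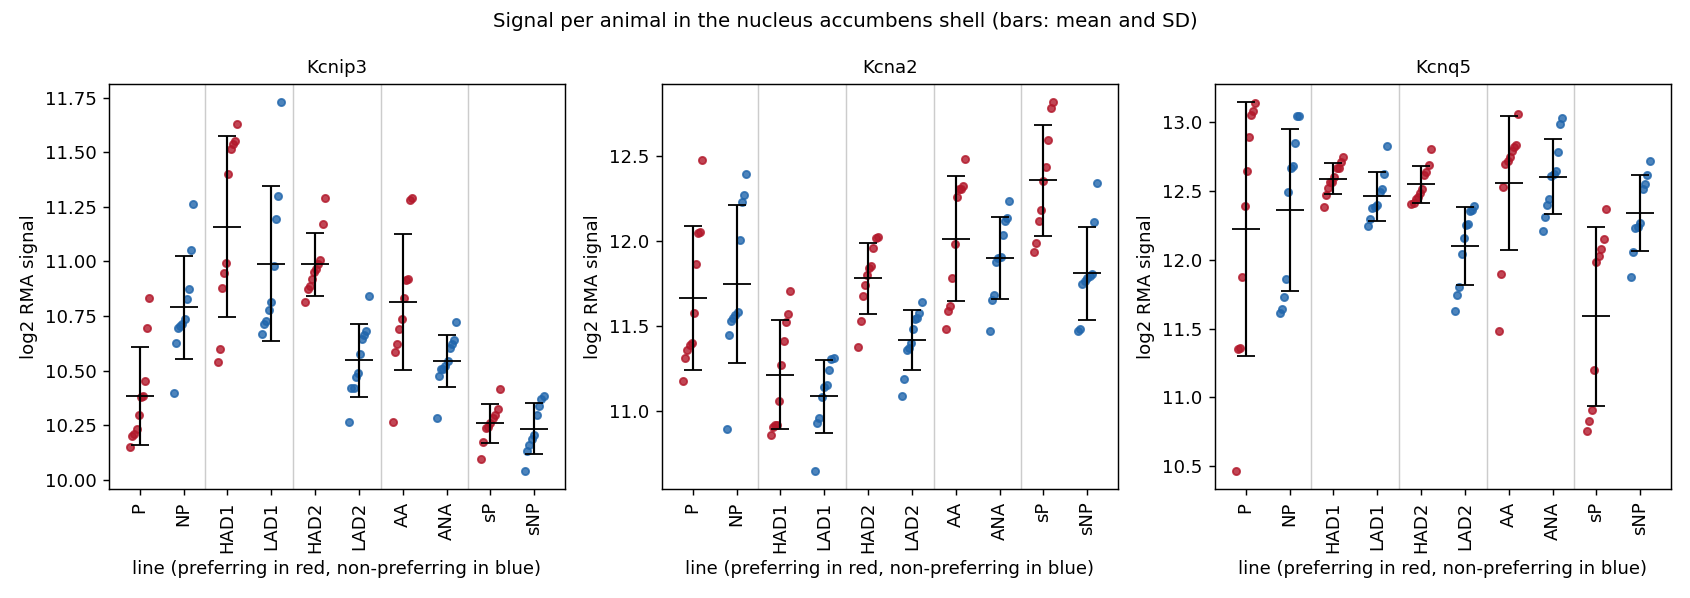
Signal (log2 RMA) of Kcnip3, Kcna2 and Kcnq5 in each animal of the 10 lines, preferring lines in red and left of their non-preferring counterparts in blue, with mean and SD. Kcnip3 lies higher in HAD2 than in LAD2 and lower in P than in NP, and Kcnq5 lies higher in HAD2 than in LAD2 and lower in sP than in sNP.

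In P rats no Kcn gene was called against NP rats (0 of 75, beside 1.05% of all probe sets). At an unadjusted p under 0.05 there were 4 genes (5.33%), beside 7.63% of all probe sets. The smallest p was that of Kcnip3, which lay at the threshold and on the opposite side from HAD2. Its signal was 10.15, 10.34 and 10.83 (lowest, median and highest) in P rats, against 10.40, 10.73 and 11.26 in NP rats. Of 10 P animals 9 lay below the NP median, with overlap. The difference was -0.41 ± 0.099 (limma adjusted p = 0.0508), and it was -0.42 without the arrays P 9 and NP 9 (adjusted p = 0.0219), when 661 of the 31042 probe sets were called. Leaving out P 3, P 7 or NP 9 alone also brought it under the threshold (adjusted p from 0.0135 to 0.103 over the 20 omissions). The second probe set of Kcnip3 differed by -0.26 ± 0.098 (adjusted p = 0.358).

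Kcnk12, a halothane-inhibited K2P channel, was next in P/NP. Its signal was 6.21, 6.58 and 6.70 in P rats, against 6.58, 6.83 and 7.14 in NP rats, so that every P animal lay below the NP median although the lines overlapped. The difference of -0.26 ± 0.07 did not pass (limma adjusted p = 0.0837). Kcnh8, an ELK channel, differed by 0.13, the M-current subunit Kcnq3 by -0.16 and the alkaline-activated K2P channel Kcnk5 by 0.14, with adjusted p from 0.36 to 0.674. Microglial markers were lower in P for 10 of 10 genes with 1 called, with list means from 9.41 to 9.99 in P rats and from 9.64 to 10.1 in NP rats. Their part in the Kcnip3 value was not tested. None of the 17 partners was called.

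In HAD1 rats no Kcn gene was called against LAD1 rats (0 of 75, beside 1.2% of all probe sets), and 7 genes (9.33%) had an unadjusted p under 0.05, beside 9.89% of all probe sets. Kcnk1, the TWIK1 leak channel, came closest. Its signal was 6.56, 6.76 and 7.06 in HAD1 rats, against 6.27, 6.53 and 7.0 in LAD1 rats, and all 10 HAD1 animals lay above the LAD1 median. The difference was 0.27 ± 0.085 (limma adjusted p = 0.169). Without HAD1 28 and LAD1 37 it was 0.29 (adjusted p = 0.0203), when 3.98% of all probe sets were called, and without LAD1 37 alone the adjusted p was 0.0175.

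The A-type partner Kcnip1 (0.31 ± 0.118), Kcnma1 (-0.10 ± 0.043), Kcns3 (0.50 ± 0.216) and the ELK channel Kcnh4 (-0.13 ± 0.058) followed in HAD1/LAD1, with adjusted p from 0.303 to 0.435. One probe set of the beta subunit Kcnab2 was called lower in HAD1 rats (-0.52 ± 0.114, limma adjusted p = 0.0267; medians of 8.34 in HAD1 and 8.87 in LAD1). The other 3 probe sets of that gene, among them the brightest, differed by -0.01, 0.02 and 0.04, and none was called. The same probe set differed by 0.38 in HAD2/LAD2 (adjusted p = 0.0901). No partner was called in HAD1/LAD1. Without HAD1 28 and LAD1 37 Dpp10, a transmembrane subunit of A-type channels, was called lower (adjusted p = 0.0406, against 0.119 with them). Among cell markers, 1 of 8 endothelial genes was called higher in HAD1 rats and 1 lower. Cortical markers were positive for 6 of 6 genes with none called, and their list means reached 8.2 in both lines. The part of these cells in the HAD1/LAD1 values was not tested.

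In AA rats no Kcn gene was called against ANA rats (0 of 75, beside 2.35% of all probe sets), and 6 (8%) had an unadjusted p under 0.05, beside 9.74%. Kcnip3 again had the smallest p. Its signal was 10.27, 10.79 and 11.29 in AA rats, against 10.28, 10.53 and 10.72 in ANA rats, and 9 of 10 AA animals lay above the ANA median. The difference was 0.27 ± 0.101 (limma adjusted p = 0.246). It was 0.30 without AA 19 and ANA 20 (adjusted p = 0.0501), and the adjusted p was 0.0342 without AA 19 alone.

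The intermediate-conductance calcium-activated channel Kcnn4 (0.16 ± 0.061) followed in AA/ANA, as did the ERG channels Kcnh2 (0.23 ± 0.09), Kcnh7 (0.13 ± 0.056) and Kcnh6 (-0.16 ± 0.072). Their limma adjusted p ran from 0.264 to 0.449. Of the 17 partners, 2 were called lower in AA rats. Dpp6, a transmembrane subunit of A-type channels, averaged 11.90 in AA and 12.11 in ANA rats (-0.21 ± 0.056, adjusted p = 0.0454). Cntnap2, which clusters Kv1 channels beside the node of Ranvier, averaged 12.10 in AA and 12.29 in ANA rats (-0.19 ± 0.048, adjusted p = 0.0337). Without AA 19 and ANA 20 the adjusted p of Cntnap2 was 0.0528 and that of Dpp6 0.033. Of the cell markers only the astrocyte marker Gfap (0.92) and the microglial marker Aif1 (0.32) were called, both higher in AA. Cortical markers were positive for 6 of 6 genes, with list means up to 9.56 in AA rats (median 6.86). Oligodendrocyte markers were negative for 8 of 9 and interneuron markers for 7 of 7. The part of these cells in the AA/ANA values was not tested.

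In sP rats the Kv3 genes Kcnc1, Kcnc2 and Kcnc4 were higher than in sNP rats, as were Kcna2, Kcna6, Kcnd3 and Kcns3, and the BK channel Kcnma1, the M-current subunit Kcnq5 and the inward rectifier Kcnj4 were among the genes that were lower. Of the 75 genes 22 (29.3%) were called, 10 higher and 12 lower, beside 12.9% of all probe sets (7.08% higher and 5.83% lower), and 34 (45.3%) had an unadjusted p under 0.05, beside 30.3%. By class, 14 of 31 pore-forming or silent Kv genes were called (8 higher, 6 lower), 3 of 11 Kv auxiliary genes (1 higher, 2 lower), 2 of 15 Kir genes (1 each way), 0 of 11 K2P genes and 3 of 7 calcium-activated or Slo genes (all lower). The calls lay among bright probe sets: 13 of the 22 Kcn genes in the brightest 25% of probe sets were called (59.1%, beside 20.8% of all probe sets there) and 0 of 20 in the dimmest 25% (beside 2.91%).

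The marker lists moved in the same pair. Markers of medium spiny neurons were lower in sP rats for 15 of 15 genes, 13 of them called, with a median difference of -0.94; Drd1 was lower by 0.94 and Adora2a by 1.3. Their list mean was 10.2, 11.7 and 12.3 (lowest, median and highest) over sP animals, against 11.6, 12.5 and 12.6 over sNP animals. Of 8 markers of the ventral pallidum, septum and basal forebrain, 3 were called higher, among them Pvalb (1.07), and the median difference was 0.40. Pvalb is also 1 of the 7 markers of striatal interneurons, of which 1 was called higher and 1 lower, with a median difference of -0.05. Mural and meningeal markers were positive for 8 of 8 genes (3 called higher), oligodendrocyte markers for 9 of 9 (1 called higher) and astrocyte markers for 6 of 9 (3 called higher, among them Gjb6 by 0.84). Endothelial markers were negative for 7 of 8 (3 called lower, among them Vwf at -0.84). No cortical or microglial marker was called. The part of these other cells in the Kcn differences was not tested. The difference between the 2 list means, called the marker index here, was from 1.3 to 3.95 in sP rats and from 2.93 to 4.80 in sNP rats. Its mean was lower by 1.42 in sP (exact permutation test, two-sided, p = 0.00588; adjusted over 10 tests 0.0588). Fewer spiny neurons in the sample and less RNA per spiny neuron cannot be told apart in bulk tissue.

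The gene that differed most in sP/sNP was Kcns3. Its signal was 9.19, 9.94 and 10.75 in sP rats, against 6.95, 9.16 and 9.86 in sNP rats. All 9 sP animals lay above the sNP median, and the upper sNP animals overlapped the lower sP animals. The difference of 1.3 ± 0.36 corresponds to 2.44-fold (limma adjusted p = 0.0334).

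The Kv3 channels, which let neurons fire fast, were higher as well. Kcnc2 had signals of 11.63, 12.40 and 12.96 in sP rats, against 10.51, 11.69 and 12.43 in sNP rats (0.88 ± 0.267, limma adjusted p = 0.0395). For Kcnc2, 2 further probe sets were called in the same direction (0.98 and 0.88). Kcnc1 had signals of 11.58, 12.16 and 12.72 in sP rats, against 10.83, 11.37 and 12.19 in sNP rats (0.73 ± 0.2, adjusted p = 0.0311). The lines overlapped for both genes.

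Of the Kv1 family, 2 axonal members were higher. Kcna6 had the smallest p of the class, with signals of 10.67, 11.06 and 11.43 in sP rats, against 9.93, 10.42 and 10.92 in sNP rats. Every sP animal lay above the sNP median, and the difference was 0.67 ± 0.126 (limma adjusted p = 0.00353). The other probe sets of Kcna6, which were dimmer, differed by 0.04 and 0.06 and were not called. Kcna2 had signals of 11.93, 12.35 and 12.81 in sP rats, against 11.47, 11.78 and 12.34 in sNP rats (0.54 ± 0.131, adjusted p = 0.0194). Its dimmer probe set differed by 0.04 (adjusted p = 0.831). The A-type channel Kcnd3 was higher by 0.48 ± 0.113 (adjusted p = 0.0168; medians of 10.52 in sP and 9.94 in sNP) and Kcnh2 by 0.39 ± 0.113 (adjusted p = 0.0368; medians of 7.87 in sP and 7.53 in sNP). The other probe sets of Kcnd3 differed by 0.006 (adjusted p = 0.967) and 0.17 (adjusted p = 0.0835).

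Lower in sP rats were Kcnj4, a strong inward rectifier of forebrain neurons, and Kcna4. Kcnj4 had signals of 7.69, 9.04 and 9.36 in sP rats, against 8.85, 9.55 and 9.91 in sNP rats, and all 9 sP animals lay below the sNP median. It fell by 0.83 ± 0.234 (limma adjusted p = 0.0329), with a second probe set at -0.72 (adjusted p = 0.0478). Kcna4 had signals of 9.89, 11.06 and 11.59 in sP rats, against 10.92, 11.54 and 11.87 in sNP rats (-0.77 ± 0.222, adjusted p = 0.0358). In both genes 4 sP animals lay apart, below the other 5, and the other 5 overlapped the sNP animals.

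Kcnma1, the BK channel, had signals of 9.73, 10.78 and 11.21 in sP rats, against 10.67, 11.25 and 11.57 in sNP rats (-0.75 ± 0.2, limma adjusted p = 0.0294). Its other 2 probe sets, which were dimmer, differed by -0.10 and -0.15 and were not called. The SK channel Kcnn3 was at 6.38, 6.56 and 6.83 in sP rats, against 6.75, 6.89 and 7.17 in sNP rats (-0.32 ± 0.069, adjusted p = 0.0104). Its lines overlapped over a narrow range, and every sP animal lay below the sNP median. Together with Kcnt1, these were the 3 called members of the calcium-activated and Slo class, and all were lower.

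Kcnq5 was lower in sP rats, at 10.76, 11.99 and 12.37, against 11.87, 12.26 and 12.71 in sNP rats (-0.75 ± 0.215, limma adjusted p = 0.0347), which is the opposite direction to HAD2/LAD2. Its dimmer probe sets differed by -0.04 and 0.01 and were not called. Kcnab1 was at 11.42, 12.74 and 13.21 in sP rats, against 12.66, 13.22 and 13.41 in sNP rats (-0.74 ± 0.221, adjusted p = 0.0383), with a second probe set at -0.59 (adjusted p = 0.0418). The EAG channel Kcnh1 (-0.56 ± 0.171, adjusted p = 0.0404) and Kcnh4 (-0.49 ± 0.132, adjusted p = 0.0307) were lower too.

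The other 7 called genes, named after their values were seen, had adjusted p from 0.0413 to 0.0458. Higher in sP rats were the glial Kcnj16 (0.94), the Kv3 channel Kcnc4 (0.64) and the beta subunit Kcnab3 (0.53). Lower were the silent subunit Kcnv1 (-0.87), the A-type partner Kcnip2 (-0.71), the sodium-activated Kcnt1 (-0.42) and the A-type channel Kcnd1 (-0.20). Of the 22 called genes 12 had further probe sets, 22 in number. Of those, 18 had the sign of the brightest, 5 were called with it and none was called against it. A dim probe set of Kcnip1 was called lower without the brightest (-0.26, adjusted p = 0.0221, mean signal 4.85).

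The sP and sNP animals overlapped for all 22 called genes, beside 0.49% of all probe sets without overlap. When each animal was left out in turn, Kcna6, Kcna2, Kcnd3 and Kcnn3 stayed called in all 18 fits, and each of the other 18 genes in 7 to 10 of them. The count of called Kcn genes was 4 without sP 2, sP 5, sP 8, sP 9, sNP 1, sNP 3, sNP 5 or sNP 9, and 10 without sNP 6. Without the departing arrays sP 4 and sNP 4 it was 26 (beside 15% of all probe sets). The added genes were Kcna5 (-0.67, limma adjusted p = 0.0376) and Kcnk2 (-0.56, adjusted p = 0.0492), which were lower in sP, and Kcnj5 (0.39, adjusted p = 0.036) and Kcnj6 (0.83, adjusted p = 0.0401), which were higher. A dim second probe set of Kcnq3 was then called too (adjusted p = 0.0363). With all 10 lines in 1 limma fit 17 Kcn genes were called in sP/sNP, 16 of them among the 22, and Kcns3, Kcnc2, Kcnn3, Kcnj16, Kcnab3 and Kcnd1 were not (adjusted p from 0.0549 to 0.37).

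Of the 17 partners, 2 were higher in sP rats: Amigo1, a partner of Kv2 channels (10.19 in sP, 9.69 in sNP; 0.49 ± 0.14, limma adjusted p = 0.0334), and Vapb, which tethers Kv2 clusters to the endoplasmic reticulum (11.29 in sP, 11.05 in sNP; 0.24 ± 0.07, adjusted p = 0.0376). Dpp6 (-0.16, adjusted p = 0.0364) and Cntnap2 (-0.21, adjusted p = 0.0442) were lower. With the marker index as a covariate none of the 4 was called.

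**Figure D3:**
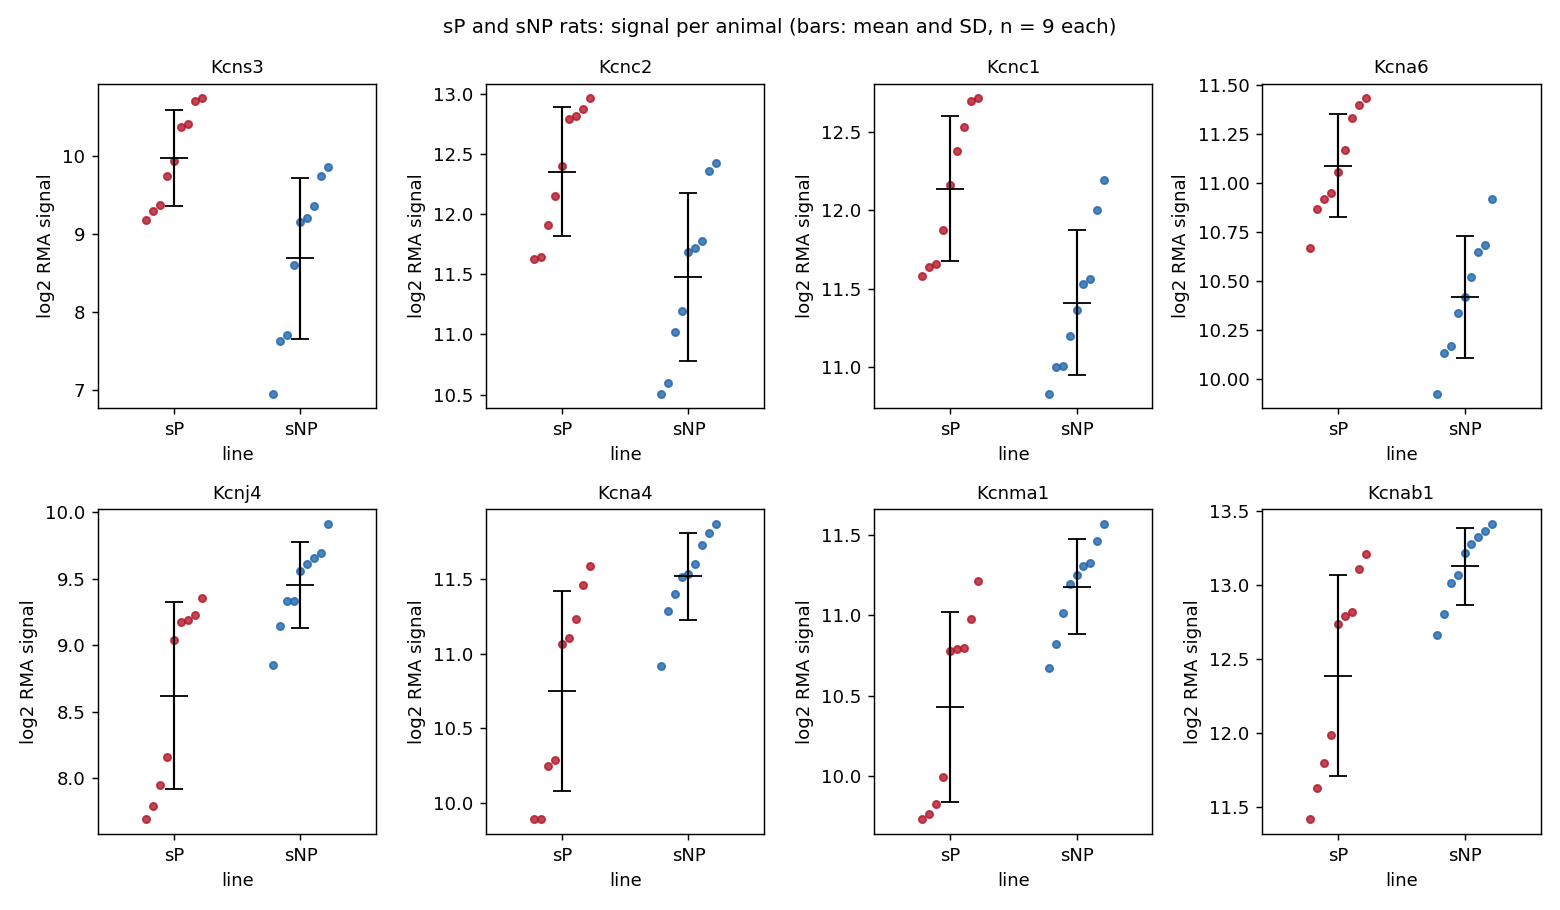
Signal (log2 RMA) of 8 Kcn genes called in sP/sNP, per animal, sP in red and left of sNP in blue, with mean and SD (n = 9 each). Kcns3, Kcnc2, Kcnc1 and Kcna6 lie higher in sP and Kcnj4, Kcna4, Kcnma1 and Kcnab1 lower, with overlap in every panel and, in the lower row, a set of sP animals well below the others.

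With the marker index as a covariate in sP/sNP, none of the 22 genes stayed called, and 0.931% of all probe sets were called. Kcns3 then differed by 0.25, Kcnc2 by 0.04 and Kcnj4 by -0.05. Kcna6 (0.29, limma adjusted p = 0.213) and Kcnd3 (0.28, adjusted p = 0.724) kept more of their difference. The index was lower in sP with an adjusted p of 0.0588. This fit removes what moves with the index, whatever its source. The other arrays were then examined for the same relation, a step added after the data were seen.

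In the 8 other lines (79 arrays), the slope of each gene on the marker index within lines was called for 49 of the 75 Kcn genes (65.3%), beside 48.8% of all probe sets, with 29 positive (24.9% of all probe sets) and 20 negative (23.9%). Positive slopes were those of genes that were brighter where spiny neuron markers were brighter. They were found for Kcnip2 (0.47 log2 per unit of index), Kcna4 (0.46), Kcnj4 (0.52), Kcnq5 (0.44), Kcnk2 (0.40) and Kcnma1 (0.41), and for 6 of the 7 calcium-activated or Slo genes. Negative slopes, of genes brighter where pallidal and septal markers were brighter, were found for Kcns3 (-1.11), Kcnj16 (-0.84), Kcnj6 (-0.71), Kcnc2 (-0.70) and Kcnc1 (-0.43).

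The 12 genes called lower in sP all had a called positive slope in these other lines. The 10 called higher in sP all had a negative slope, 9 of them called and Kcnh2 not (-0.03, limma adjusted p = 0.349). The matching shares over all probe sets called in sP/sNP were not counted, so these counts cannot be read as particular to Kcn genes. Across the 75 genes, Pearson's r between the slope in the 8 lines and the sP minus sNP difference was -0.93 and Spearman's rho -0.87. This is a description across genes, which are not independent. Over all probe sets r was -0.76, over the 53 Kcn genes not called in sP/sNP it was -0.79, and with slopes from 6 lines (59 arrays, without P and NP) it was -0.87.

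Kcnip1 lay apart from the other genes in that comparison, as seen once its values were plotted. It had a negative slope on the index in the 8 lines (-0.37 ± 0.036), yet its median was 10.4 in both lines of the pair and its difference was -0.20 ± 0.155 in sP (limma adjusted p = 0.422). With the index as a covariate it was lower in sP rats by 0.67 ± 0.109 (adjusted p = 0.00233), and it was the only Kcn gene called in that fit.

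**Figure D4:**
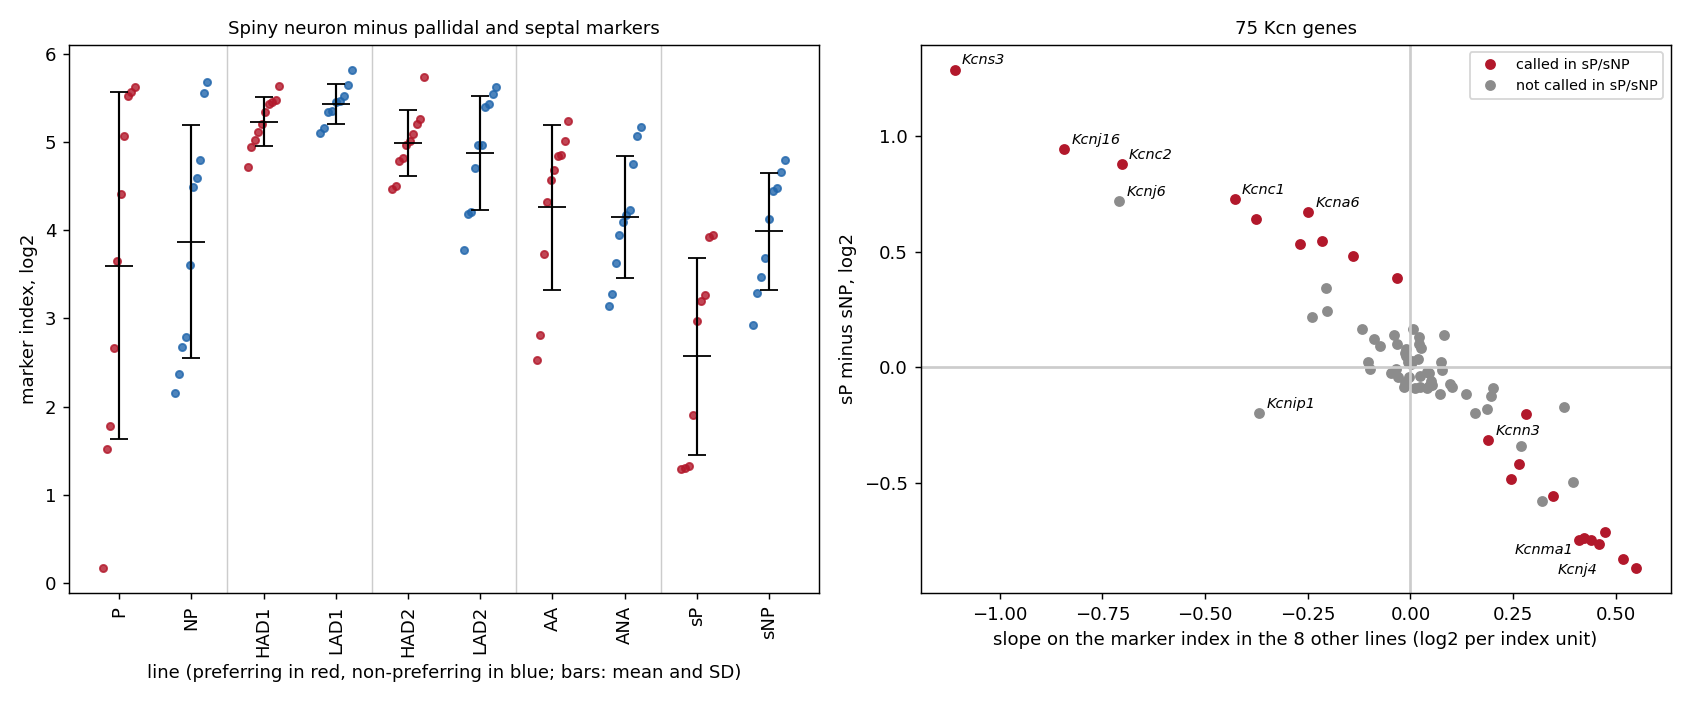
Left, the marker index (mean of the spiny neuron list minus mean of the pallidal and septal list, log2) of each animal, with mean and SD per line. Right, sP minus sNP difference (log2) of the 75 Kcn genes against their slope on the index in the 8 other lines. The genes called in sP/sNP (red) run from Kcns3 at upper left to Kcnj4 at lower right, and Kcnip1 lies below that band.

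With the marker index as a covariate in the other pairs, the 3 genes of HAD2/LAD2 stayed called: Kcnip3 at 0.43, Kcnq5 at 0.41 and Kcna2 at 0.37 (limma adjusted p from 7.79e-06 to 0.00514). Kcnh2 (-0.34, adjusted p = 0.0425) and Kcnh1 (0.17, adjusted p = 0.0409) were then called as well, beside 6.07% of all probe sets. In P/NP, Kcnip3 (-0.39, adjusted p = 0.0179) and Kcnk12 (-0.26, adjusted p = 0.0456) were called with the covariate, beside 3% of all probe sets. The index itself passed the adjusted test in no pair (exact permutation tests, two-sided, adjusted p of 0.0588 in sP/sNP and from 0.445 to 0.854 in the other 4), and its mean was lower by 0.27 in P and higher by 0.11 in HAD2.

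On average over the 5 pairs, 1 of 75 Kcn genes was called, beside 3.37% of all probe sets (1.78% higher). Kcna2 was higher in preferring lines by 0.21 ± 0.063 (limma adjusted p = 0.0375), with a higher mean in 4 of 5 preferring lines and P as the exception (-0.08). It was called in 2 single pairs, HAD2/LAD2 and sP/sNP. When the 5 pairs themselves served as replicates, its unadjusted p was 0.0558 and its adjusted p 0.948, and none of the 31042 probe sets was called. With the marker index as a covariate the average of Kcna2 was 0.14 (adjusted p = 0.0729). In total 23 Kcn genes were called in at least 1 pair, 22 of them in sP/sNP. At least 2 pairs called 2 genes, and 3 or more pairs called 0. The matching shares over all probe sets were not counted, so these counts cannot be read as particular to Kcn genes.

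By limma's F test of equal differences, the difference depended on the pair for 6 of the 75 genes (8%, beside 11.7% of all probe sets). The test uses 1 spread between animals for all lines, whereas the SD of the marker index ran from 0.22 in LAD1 to 1.97 in P. The Gapdh 3' minus 5' signal also differed between pairs, and its part in these tests is not known. Kcnip3 had the strongest test (adjusted p = 0.000123), at -0.41 in P, 0.17 in HAD1, 0.44 in HAD2, 0.27 in AA and 0.02 in sP relative to the non-preferring line of each pair. Kcna6 (adjusted p = 0.00461) stood at 0.67 in sP/sNP against -0.18 in HAD2/LAD2 and 0.27 in P/NP. Kcnh2 (adjusted p = 0.00498) ran from -0.32 in HAD2/LAD2 to 0.39 in sP/sNP. Kcnd3 (adjusted p = 0.00601) was positive in sP/sNP (0.48) and between -0.15 and -0.01 in the other 4 pairs.

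Kcnq5 (limma adjusted p = 0.0287) was called in opposite directions in 2 pairs, higher in HAD2 (0.45) and lower in sP (-0.75). Kcnma1 (adjusted p = 0.0288) was at 0.29 in AA/ANA, 0.23 in HAD2/LAD2 and -0.75 in sP/sNP. The next 4 genes, Kcnj5, a G protein-gated channel, with Kcnh1, Kcnab2 and Kcne4, did not pass (adjusted p from 0.103 to 0.134).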

How the data were processed

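Per the submitters' processing notes, signals were summarised with RMA, with no version given. The deposited log2 values of the authors' table were used unscaled. Raw intensities were not used here. Per the labels' protocols, 25 ng of total RNA went through the 2-cycle Affymetrix labelling. Of 31099 probe sets 57 Affymetrix controls were left out, and of the rest 20826 had 1 gene symbol, 436 several and 9780 none.

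Each pair had its own two-sided fit in R 4.3.3 with limma 3.58.1 (functions lmFit and eBayes with neither trend nor robust option), with preferring minus non-preferring differences and Benjamini-Hochberg adjustment over 31042 probe sets. Genes with an adjusted p under 0.05 are called. The average and the F test came from a limma fit with 1 mean per line. An array departs when it lies over 0.3 from its line on a score of 50 probe sets. The fit was also run on simulated data with independent noise in each probe set, which does not cover variation shared between probe sets. The number of arrays limits precision. The p-values of the limma fits rest on the spread between animals within lines, or between pair differences where pairs served as replicates. Alternatives covered normalization, variance model, dim probe sets, departing arrays, RNA integrity, marker index, probe set choice and arrays fitted.

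Named genes were the 4 brightest of each class, all called genes of a pair (at most 15 by adjusted p, filled to 5 where fewer were called), the called genes of the average, the 10 smallest p of the F test, discordant probe sets and called partners. Members, classes, marker lists and partners (20 listed, 17 measured) were chosen with earlier results of these data known. Current symbols and neighbours came from RefSeq, assembly GRCr8.

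Both lines of P/NP, and both of sP/sNP, use the same animal numbers. Correlations of same-numbered animals' deviations from their line means ran from -0.59 to 0.77 and from -0.22 to 0.56, with 6 of 10 and 5 of 9 over 0.1. Of these animals, 4 of 10 and 2 of 9 correlated best with their own number. The labels state no pairing, so the main fits used no block, but these correlations cannot exclude one.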

Additional observations from a re-analysis of the deposited data

Results flagged for a closer look

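The differences of 6 Kcn genes were unequal between the 5 line pairs by limma's F test, whose F values were 8.91 for Kcnip3, 5.91 for Kcna6, 5.84 for Kcnh2, 5.69 for Kcnd3, 4.38 for Kcnq5 and 4.37 for Kcnma1. For Kcnip3 the preferring line was lower in P/NP (-0.41) and higher in HAD2/LAD2 (0.44), the single pair in which it was called. Without the 8 departing arrays its adjusted p was 1.42e-05, and those of the other 5 genes were between 0.000368 and 0.00988. For Kcna6, Kcnd3 and Kcnma1 the pair that stood apart was sP/sNP, in which the marker index was lower by 1.42 in sP (exact permutation test, adjusted p = 0.0588).

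Of 94 combinations of a line with a named gene or with the marker index, 2 held an animal far from the others, where chance gives about 1 in 20. Kcnk12 was at 7.14 in NP 9, with the next animal at 6.87, and NP 9 is among the departing arrays. Without P 9 and NP 9 the P/NP difference of Kcnk12 was -0.23 (limma adjusted p = 0.096). Kcnh6 was at 6.76 in AA 17, with the next animal at 7.05.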

How the results depend on the processing

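Quantile normalization and the trended, robust variance model kept every count of called Kcn genes within 1.5 times. In P/NP the count of 0 became 1 without the dimmest 25% of probe sets, 1 without the departing arrays, 1 with all 10 lines in 1 fit and 2 with the marker index. In HAD1/LAD1 it became 1 without the departing arrays and 1 when any probe set counted. In HAD2/LAD2 the 3 became 5 with the marker index and 1 (Kcnip3) with all 10 lines fitted. In sP/sNP the 22 became 4 with the Gapdh covariate and 1 with the marker index, and in the average the 1 became 0 with the line as replicate. Leaving out 1 array gave counts from 0 to 1 in P/NP (P 3, P 7 or NP 9), from 0 to 1 in HAD1/LAD1 (LAD1 37), 3 throughout in HAD2/LAD2, from 0 to 1 in AA/ANA (AA 19) and from 4 to 29 in sP/sNP. With animal number as a replicate block the counts were 1 in P/NP and 26 in sP/sNP, and 4 of 10 and 2 of 9 animals correlated best with their own number. With the marker index the sP/sNP difference changed sign, at an adjusted p of 1, for Kcnab1 (0.026), Kcnh1 (0.033), Kcnt1 (0.0039), Kcnip2 (0.054), Kcnc4 (-0.0075), Kcnv1 (0.055) and Kcnab3 (-0.026). Apart from the covariates, whose construction removes what moves with the index or the Gapdh signal, the cause of these changes was not tested.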

Other observations

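Several Kcn genes lie next to each other in the rat genome. In the order of RefSeq's annotation (assembly GRCr8), 8 neighbouring pairs of Kcn genes had no other annotated gene between them. Kcna5, Kcna1 and Kcna6, 3 Kv1 genes in a row, differed between sP and sNP by -0.58 (limma adjusted p = 0.0505), -0.09 (adjusted p = 0.528) and 0.67 (adjusted p = 0.00353). Kcnj16 was higher by 0.94 in sP, and its neighbour Kcnj2, whose mean signal was 5.37, differed by -0.02 (adjusted p = 0.851). Kcna2 was higher by 0.54, and its neighbour Kcna3, whose mean signal was 5.21, differed by -0.04 (adjusted p = 0.719). Kcnj2 and Kcna3 lie in the dimmest 25% of probe sets, where none of 20 Kcn genes was called in sP/sNP. These genes were chosen after their values were seen, and differences between neighbours were not tested.

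Kcnj6 was the only one of the 75 genes with the same sign in all 5 pairs, beside 6.3% of all probe sets. It was higher in the preferring line by 0.27 in P/NP, 0.75 in HAD1/LAD1, 0.09 in HAD2/LAD2, 0.18 in AA/ANA and 0.72 in sP/sNP, and no pair passed with all arrays (limma adjusted p from 0.0575 to 1). In sP/sNP it was called without sP 4 and sNP 4 (0.83, adjusted p = 0.0401). With the lines as replicates the unadjusted p was 0.0116 and the adjusted p 0.948. Its animals spread widely, from 7.28 to 8.77 in sP rats and from 6.57 to 8.23 in sNP rats. Its signal fell by 0.71 log2 per unit of marker index in the 8 lines other than sP and sNP. The dimmer probe sets of Kcnj6 did not all share the sign. That with a mean signal of 7.07 was at -0.02 in HAD1/LAD1, -0.05 in HAD2/LAD2 and -0.02 in sP/sNP. That with a mean of 5.53 was at -0.03 in HAD2/LAD2, and that with a mean of 5.89 was positive in every pair.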
